A study of Mus musculus with 8 samples.

Results

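The genes described here are those of glucose uptake, glycolysis, lactate handling, pyruvate entry into mitochondria, the pentose phosphate pathway and the hypoxia response. They were followed in mouse peritoneal macrophages before and after lipopolysaccharide (LPS), a bacterial TLR4 ligand. A list of 38 genes was taken by symbol, and a gene counted as measured when the array annotation gave it a probe set with a single gene symbol. On this rule 35 of 38 genes were measured, out of 18194 genes on the array, and each was read from the probe set whose mean over all arrays was highest. Gpi1 (glucose-6-phosphate isomerase), Eno1 (enolase) and G6pdx (glucose-6-phosphate dehydrogenase) were not analysed here.

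The macrophages had been elicited with thioglycollate, an irritant that recruits them to the peritoneum. A first set of cells came from mice labelled Zc3h12a-/- and was harvested unstimulated or after 1, 2 or 4 h with 100 ng/ml LPS. The second set came from mice labelled wild-type and was treated in the same way. Each genotype and time had 1 Affymetrix array, 8 in all, so no group had a replicate. All mice shared the thioglycollate injection, and their age, sex, strain background and number per array are not given in the sources used here. Zc3h12a encodes Regnase-1, an RNase that cleaves inflammatory mRNAs.

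Glycolysis splits glucose to pyruvate in the cytosol, and lactate dehydrogenase turns pyruvate into lactate, which leaves the cell through monocarboxylate transporters. The pentose phosphate pathway branches off at glucose 6-phosphate and makes NADPH and ribose. Macrophages activated by LPS are known to shift towards glycolysis and lactate release and to accumulate HIF-1alpha, the oxygen-sensitive transcription factor that acts on many of these genes.

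The values are deposited log2 intensities normalized by RMA, which makes the distributions of all arrays alike. A level of one gene cannot be set against that of another, since each probe set hybridises with its own strength. LPS was tested at each time against 0 h with both genotypes as the 2 arrays of a time, and genotype was tested over the 4 times, in 1 limma fit over 12541 genes. A gene was called when its p adjusted by Benjamini-Hochberg over all those genes was under 0.05, and each error is limma's moderated standard error (SE). All 35 measured members passed the filter on low signal, and 30 of them lay above the array background on all 8 arrays. Pfkm, Pfkfb2, Pfkfb4, Aldoc and Pdk2 lay above it on some arrays. The 2 arrays of a time are 1 per genotype, so the residual spread is the departure of the genotypes from a shared time course. That spread may be partly technical. No source used here says how many mice or separate cell pools stood behind the arrays of a genotype. The p-values therefore do not measure variation between mice or repeat cultures.

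The arrays correlated pairwise at 0.899 to 0.984, and the array background lay between 2.96 and 3.26. The brighter Zc3h12a probe set read 6.73, 7.70, 8.75 and 8.5 at 0, 1, 2 and 4 h on the arrays labelled knockout and 6.12, 8.02, 8.87 and 8.57 on the wild-type arrays. The array labelled knockout was higher at 0 h and slightly lower at 1, 2 and 4 h, and Zc3h12a was not called by genotype (log2 difference 0.02, adjusted p = 0.941). Whether the probe set lies inside the deleted segment could not be told, and so it is no check of the labels. Every genotype direction below rests on the label. Among genes known to respond to LPS, Tnf and Il1b were 128-fold and 437-fold higher at 1 h than at 0 h, and Acod1, the enzyme gene of itaconate synthesis, was 12.6-fold higher. Nos2, the inducible nitric oxide synthase, lay at background at 0, 1 and 2 h and was at least 15.6-fold higher at 4 h (adjusted p = 0.000184). All 8 macrophage markers lay above background on all arrays.

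After LPS the transcripts of the sugar transporter gene Slc2a6, the lactate transporter gene Slc16a1, the hexokinase gene Hk2 and Hif1a rose, while at 4 h 7 of 10 measured genes of lower glycolysis, 3 of 5 of pyruvate dehydrogenase and its kinases and 3 of 3 of the pentose phosphate pathway fell. At 1 h, 4 of 35 members (11.4%) were called higher than at 0 h, against 3.84% of all genes tested. A further 2 members (5.71%) were called lower, against 6.62% of all genes. At 2 h the count was 6 higher (17.1%), against 12.0% of all genes, and 17 lower (48.6%), against 29.8% of all genes. At 4 h it was 7 higher (20%), against 14.4% of all genes, and 20 lower (57.1%), against 29.4% of all genes. The median member differed by -0.15, -0.38 and -0.62 on the log2 scale at 1, 2 and 4 h, and the median of all genes tested by -0.09, -0.16 and -0.12.

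Those counts depend on how the arrays are scaled to each other. Centring each array on 11 housekeeping genes that are no members raised the median of all genes by 0.11, 0.27 and 0.33 at 1, 2 and 4 h. Under that scaling 6 members were called higher and 10 lower at 2 h, and 9 higher and 15 lower at 4 h. Over all genes, calls at 4 h numbered 4042 higher and 2187 lower under that scaling, and 1809 higher and 3690 lower as deposited. Under cyclic loess scaling 7 members were called higher and 19 lower at 4 h. Relative to the median of all genes, the median member differed at 4 h by -0.51 as deposited, -0.55 under cyclic loess and -0.51 under housekeeping centring.

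**Figure D1:**
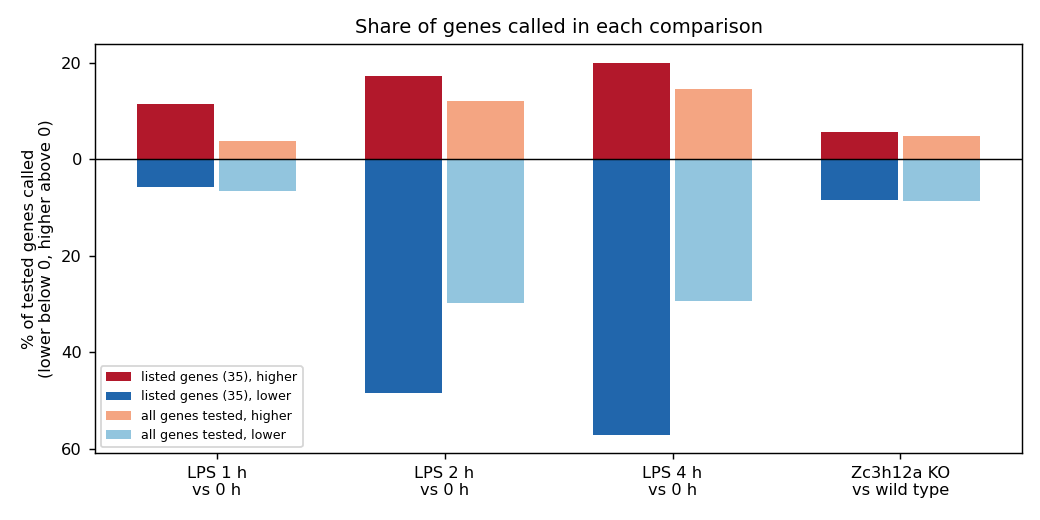
Percentage of genes called higher or lower at each LPS time and in the genotype comparison (y axis, percent, with lower calls drawn below 0), for the 35 measured members and for all 12541 genes tested. At 4 h 57.1% of members were called lower, against 29.4% of all genes, while in the genotype comparison the member shares lay near those of all genes.

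Of the 4 genes of glucose and lactate transport, 2 were called higher at 1 h and 3 at 2 h, against 3.84% and 12.0% of all genes tested. At 4 h 2 were called higher, against 14.4% of all genes, and 1 lower, against 29.4%. The largest increase of any measured member belonged to Slc2a6, which encodes GLUT6, a sugar transporter of intracellular membranes. Slc2a6 read 4.60, 6.99, 7.84 and 8.73 at 0, 1, 2 and 4 h on the labelled-knockout arrays. On the wild-type arrays it read 5.43, 7.15, 8.21 and 9.23. All 6 LPS arrays lay above both 0 h arrays, and each genotype was higher at each later time. The increase was 4.16-fold at 1 h (log2 difference 2.06, SE 0.17, adjusted p = 0.000995), 8.08-fold at 2 h and 15.7-fold at 4 h (log2 difference 3.97, SE 0.17, adjusted p = 2.04e-05).

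Slc16a1 encodes MCT1, a proton-coupled transporter of lactate and pyruvate. It read 7.04, 7.44, 9.16 and 9.36 at 0, 1, 2 and 4 h on the labelled-knockout arrays and 6.95, 7.15, 8.87 and 9.37 on the wild-type arrays. The 4 arrays of 2 and 4 h lay above the 4 earlier ones in both genotypes. The increase was 4.06-fold at 2 h (log2 difference 2.02, SE 0.12, adjusted p = 0.000118) and 5.16-fold at 4 h (adjusted p = 3.78e-05), while the difference of 0.30 at 1 h did not pass (adjusted p = 0.195). A second Slc16a1 probe set differed by 0.82 at 2 h and 0.98 at 4 h on the log2 scale. Second probe sets were given no test.

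Promoter sequences of these 2 genes are shown because they had the largest increases at 4 h among the members. They are the 250 bases before the start of the gene from RefSeq, assembly GRCm38.p6, written 5′ to 3′ on the strand of the gene. Slc2a6 lies at chr2:27027999-27028248, minus strand, and Slc16a1 at chr3:104638414-104638663, plus strand. Capitals mark ACGTG and GCGTG on either strand, the core of the element that hypoxia-inducible factors bind, and the NF-kappaB consensus had no match in either.
Slc2a6: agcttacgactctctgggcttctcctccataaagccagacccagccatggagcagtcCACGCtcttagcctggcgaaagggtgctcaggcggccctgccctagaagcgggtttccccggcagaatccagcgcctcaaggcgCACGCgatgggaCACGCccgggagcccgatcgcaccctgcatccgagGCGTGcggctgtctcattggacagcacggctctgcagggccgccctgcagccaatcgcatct
Slc16a1: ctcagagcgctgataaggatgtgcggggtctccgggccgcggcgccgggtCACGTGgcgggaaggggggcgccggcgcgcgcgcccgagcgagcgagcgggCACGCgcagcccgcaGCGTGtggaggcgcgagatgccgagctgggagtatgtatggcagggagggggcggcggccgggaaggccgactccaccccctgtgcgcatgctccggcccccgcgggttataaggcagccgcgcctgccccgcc
The Slc2a6 stretch held 4 matches to GCGTG and 0 to ACGTG. In Slc16a1 the first capitals are CACGTG, a palindrome that holds ACGTG on both strands. A match describes the letters only.

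The other 2 transporters behaved differently. Slc2a1 encodes GLUT1, the main glucose transporter of activated macrophages. Its level was 11.70, 12.35, 12.36 and 11.77 in labelled-knockout cells at 0, 1, 2 and 4 h, and 11.56, 12.29, 12.37 and 11.67 in wild-type cells. The 4 arrays of 1 and 2 h were the highest, and the 4 h arrays lay close to those of 0 h. Slc2a1 was 1.62-fold higher at 1 h (log2 difference 0.69, SE 0.11, adjusted p = 0.011) and 1.66-fold higher at 2 h (adjusted p = 0.00251), and differed by 0.09 at 4 h (adjusted p = 0.533). Its other 2 probe sets differed by 0.84 and 0.94 at 1 h and by 0.08 and 0.09 at 4 h. The call at 1 h was lost without any one of the arrays of 0 h or 1 h (adjusted p of 0.0568 to 0.105), and under housekeeping centring Slc2a1 was called higher at 4 h (0.42, adjusted p = 0.0238).

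Slc16a3 encodes MCT4, the transporter usually tied to lactate export from glycolytic cells. It read 5.50, 5.53, 5.01 and 4.57 in labelled-knockout cells at 0, 1, 2 and 4 h, and 5.73, 5.60, 5.97 and 4.99 in wild-type cells. Both 4 h arrays were lowest in their genotype, and the 2 h arrays moved apart, the wild-type one being the highest of all. The decrease at 4 h was 1.79-fold (log2 difference -0.84, SE 0.21, adjusted p = 0.0201). The call was lost without any one of the 4 arrays of 0 h or 4 h (adjusted p of 0.0601 to 0.131) and under housekeeping centring.

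Hexokinases phosphorylate glucose and keep it in the cell. Of the 3 genes, Hk2 was called higher at all 3 times and Hk1 at 4 h, and Hk3 was not called at any time. Hk2, the inducible form, read 8.86, 9.39, 10.57 and 10.53 in labelled-knockout cells at 0, 1, 2 and 4 h, and 8.84, 9.49, 10.60 and 10.30 in wild-type cells. The genotypes overlapped closely at every time, and the arrays of 2 and 4 h lay above all earlier ones. Hk2 was 1.51-fold higher at 1 h (log2 difference 0.59, SE 0.12, adjusted p = 0.032), 3.33-fold higher at 2 h (adjusted p = 0.000198) and 2.97-fold higher at 4 h (adjusted p = 0.000158). The call at 1 h was lost without any one of the 6 arrays of 0, 1 or 2 h (adjusted p of 0.0574 to 0.204).

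The Hk2 promoter is shown as that of the glycolytic enzyme gene with the largest increase at 4 h. It lies at chr6:82774455-82774704, minus strand (RefSeq, GRCm38.p6, 250 bases before the start, capitals as above).
Hk2: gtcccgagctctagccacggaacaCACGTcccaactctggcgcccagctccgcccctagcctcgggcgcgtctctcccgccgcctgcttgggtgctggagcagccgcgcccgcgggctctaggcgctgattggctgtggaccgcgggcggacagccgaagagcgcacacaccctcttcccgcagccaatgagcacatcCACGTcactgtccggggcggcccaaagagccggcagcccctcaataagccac
This stretch held 2 matches to ACGTG, both read from the opposite strand, and 0 to GCGTG.

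Hk1, the form present in most tissues, read 8.38, 8.04, 8.11 and 8.84 in labelled-knockout cells at 0, 1, 2 and 4 h, and 8.08, 8.0, 8.03 and 8.56 in wild-type cells. Both 4 h arrays were the highest of their genotype. The increase was 1.39-fold (log2 difference 0.47, SE 0.12, adjusted p = 0.0196), and the call was lost without any one of the 4 arrays of 0 h or 4 h (adjusted p of 0.052 to 0.138) and with the mean of all its probe sets (0.27). Hk3, a form abundant in myeloid cells, stayed between 11.25 and 11.74 on all arrays and differed by 0.06 at 4 h (adjusted p = 0.674). With arrays centred on housekeeping genes Hk3 was called higher at 4 h, by 0.40.

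Phosphofructokinase 1 is the committing step of glycolysis. Its 3 subunit genes moved in different directions. Pfkp, the platelet-type subunit, read 9.59, 9.86, 10.26 and 10.30 in labelled-knockout cells at 0, 1, 2 and 4 h, and 9.39, 9.51, 10.14 and 10.32 in wild-type cells. The 4 arrays of 2 and 4 h were the highest, with increases of 1.63-fold at 2 h (log2 difference 0.71, SE 0.13, adjusted p = 0.00574) and 1.77-fold at 4 h (adjusted p = 0.00248). A second Pfkp probe set, above background on all 8 arrays, differed by 0.47 at 2 h and only 0.16 at 4 h. Another, above background on 1 array, differed by 0.05 and 0.33. Pfkl, the liver-type subunit, read 5.83, 5.78, 5.03 and 4.55 in the labelled knockout and 6.15, 5.77, 4.93 and 4.75 in wild type at the same times. Pfkl was 2.01-fold lower at 2 h (adjusted p = 0.00208) and 2.52-fold lower at 4 h (log2 difference -1.34, SE 0.14, adjusted p = 0.000463). Its second probe set differed by -1.28 and -1.72 at these times, and another, above background on 4 of 8 arrays, differed by -0.10 and 0.03.

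Pfkm, the muscle-type subunit, lay at background in both genotypes at 2 h and was at least 1.33-fold lower there (adjusted p = 0.0309). That call was lost without any one of the arrays of 0 h or 2 h (adjusted p of 0.0622 to 0.177) and under housekeeping centring. At 4 h Pfkm read 3.10 in the labelled knockout and 3.32 in wild type, and the difference of -0.44 from 0 h did not pass (adjusted p = 0.0968).

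The PFKFB enzymes make and remove fructose 2,6-bisphosphate, a potent activator of phosphofructokinase 1. Pfkfb3, the form with the highest kinase over phosphatase activity, was the only measured member called lower at 2 h and higher at 4 h. It read 8.40, 7.59, 6.03 and 9.30 at 0, 1, 2 and 4 h on the labelled-knockout arrays and 8.23, 7.40, 7.14 and 9.98 on the wild-type arrays. Both 2 h arrays were the lowest of their genotype and both 4 h arrays the highest. Pfkfb3 was 3.32-fold lower at 2 h (log2 difference -1.73, SE 0.33, adjusted p = 0.00763) and 2.50-fold higher at 4 h (log2 difference 1.32, SE 0.33, adjusted p = 0.0189). The log2 difference of -0.82 at 1 h did not pass (adjusted p = 0.189).

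The Pfkfb3 difference of labelled knockout minus wild type was 0.17 at 0 h and 0.19 at 1 h, against -1.12 at 2 h and -0.68 at 4 h. Each rests on 1 array a genotype and has no test. The call at 2 h was lost without the labelled-knockout 0 h array (-1.38, adjusted p = 0.0605). The call at 4 h depended on 3 arrays, with values of 0.97 (adjusted p = 0.139) without wild type at 0 h, 1.11 (adjusted p = 0.128) without wild type at 4 h and 1.53 (adjusted p = 0.0563) without the labelled knockout at 4 h. A second Pfkfb3 probe set lay at background on all 8 arrays.

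Pfkfb4, first known from testis, and Pfkfb2, first known from heart, were called lower at all 3 times. Pfkfb4 read 4.33, 3.74, 2.95 and 3.35 in labelled-knockout cells at 0, 1, 2 and 4 h, and 5.22, 3.94, 3.44 and 3.57 in wild-type cells. Pfkfb2 read 4.79, 3.43, 3.42 and 3.32 in the labelled knockout and 4.07, 3.51, 3.15 and 2.62 in wild type. For both genes the 0 h arrays were the 2 highest, and several LPS arrays lay near background. Pfkfb4 was 1.91-fold lower at 1 h (adjusted p = 0.0295), 2.98-fold lower at 2 h (log2 difference -1.58, SE 0.19, adjusted p = 0.00126) and 2.48-fold lower at 4 h (adjusted p = 0.00186). Pfkfb2 was 1.94-fold lower at 1 h (adjusted p = 0.04), 2.22-fold lower at 2 h (adjusted p = 0.00661) and 2.75-fold lower at 4 h (log2 difference -1.46, SE 0.21, adjusted p = 0.002). The other Pfkfb2 probe sets lay above background on at most 1 array and differed by -0.15 to 0.08 at 4 h.

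At 1 h the Pfkfb4 call was lost without any one array except the labelled-knockout 0 h array (adjusted p of 0.0512 to 0.184), and the Pfkfb2 call without any one except the wild-type 1 h array (adjusted p of 0.0602 to 0.225) and under cyclic loess or housekeeping centring. The Pfkfb2 call at 2 h was lost without the labelled-knockout array of 0 h (adjusted p = 0.0552) or 2 h (adjusted p = 0.0506).

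**Figure D2:**
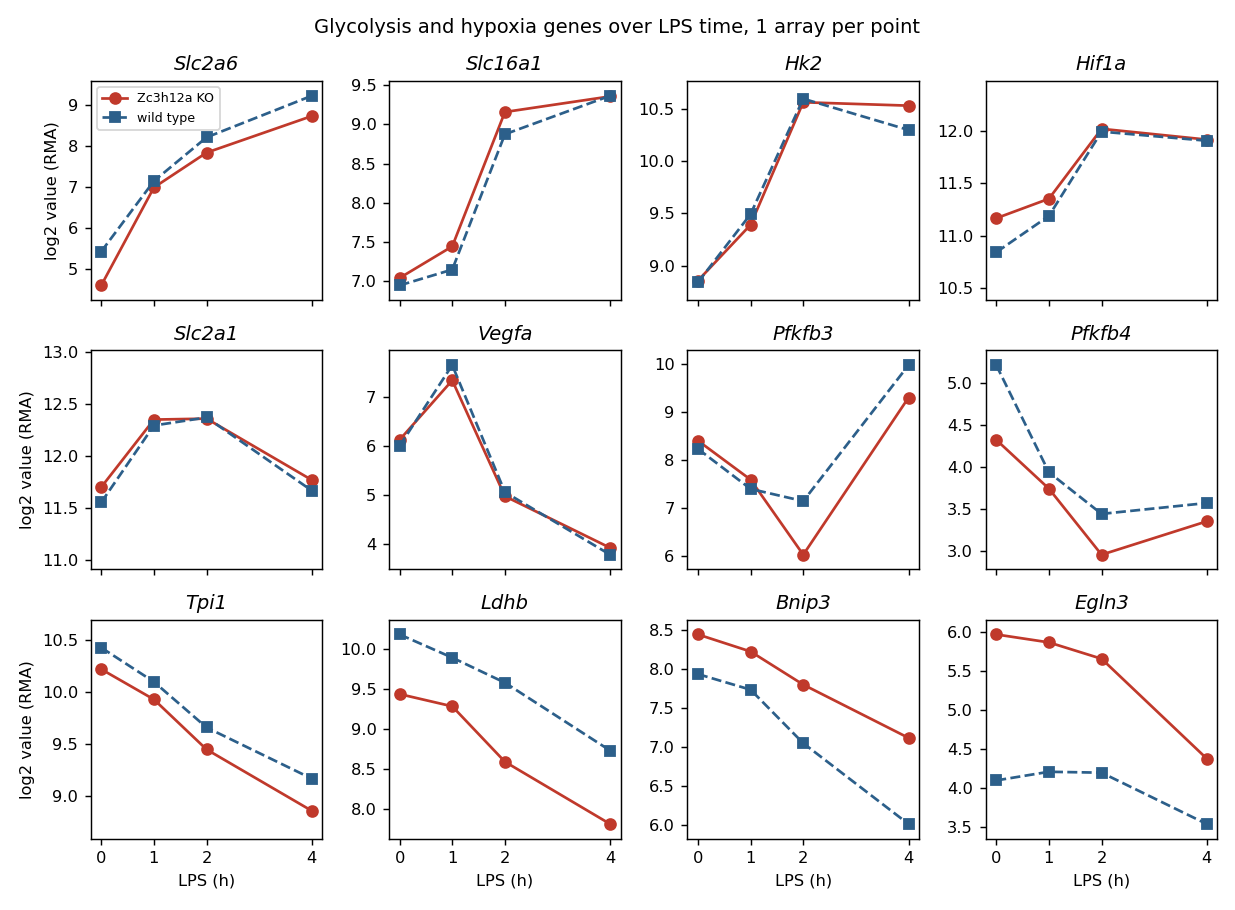
Deposited log2 level (y axis, a separate range in each panel) at 0, 1, 2 and 4 h of LPS (x axis) for selected members, with 1 point per array. The lines join the labelled-knockout arrays and the wild-type arrays. Slc2a6, Slc16a1 and Hk2 rise in both genotypes, and Egln3 and Bnip3 run above wild type in the labelled knockout at all 4 times.

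The enzymes from aldolase to pyruvate kinase and lactate dehydrogenase, which carry the lower part of glycolysis, fell or were not called. Of the 10 measured genes 0 were called at 1 h. At 2 h 4 were called lower, against 29.8% of all genes tested, and at 4 h 7 were, against 29.4%. None of the 10 was called higher at any LPS time, as deposited or under either other scaling. Of all genes, 14.4% were called higher at 4 h as deposited. Under housekeeping centring 4 of the 10 were called lower at 4 h, against 2187 of all 12541 genes. Under cyclic loess 6 were, against 3053 of all genes.

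Ldhb, the lactate dehydrogenase subunit of oxidative tissues, had the largest fall. It read 9.44, 9.28, 8.59 and 7.81 in labelled-knockout cells at 0, 1, 2 and 4 h, and 10.18, 9.89, 9.58 and 8.73 in wild-type cells. Within each genotype every later array was lower, and the labelled-knockout array was the lower one at all 4 times. The decrease was 1.65-fold at 2 h (log2 difference -0.73, SE 0.13, adjusted p = 0.00597) and 2.91-fold at 4 h (log2 difference -1.54, SE 0.13, adjusted p = 0.000215). Its other 3 probe sets differed by -1.38 to -1.57 at 4 h. The call at 2 h was lost without the labelled-knockout 2 h array (-0.61, adjusted p = 0.0506).

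Ldha, the subunit that favours lactate formation and a classic hypoxia target, was not called. It read 11.98, 11.84, 11.69 and 11.67 in labelled-knockout cells at 0, 1, 2 and 4 h, and 11.88, 11.78, 11.75 and 11.72 in wild-type cells. All 6 LPS arrays lay below both 0 h arrays, by small amounts. The difference at 4 h was -0.23 (SE 0.11, adjusted p = 0.133). Under housekeeping centring its sign turned, to 0.06 at 2 h and 0.10 at 4 h. With trend and robust moderation it was called lower at 2 h (adjusted p = 0.0153) and 4 h (adjusted p = 0.00808).

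Tpi1 encodes triose phosphate isomerase. It read 10.22, 9.93, 9.45 and 8.86 in labelled-knockout cells at 0, 1, 2 and 4 h, and 10.42, 10.09, 9.66 and 9.17 in wild-type cells, so every later array was lower in each genotype. Tpi1 was 1.70-fold lower at 2 h (adjusted p = 0.00208) and 2.47-fold lower at 4 h (log2 difference -1.31, SE 0.10, adjusted p = 0.000171), and its other 2 probe sets differed by -1.20 and -1.11 at 4 h. Pkm, the pyruvate kinase of macrophages, was 1.82-fold lower at 4 h (log2 difference -0.87, SE 0.11, adjusted p = 0.00107), with 4 h levels of 9.01 in the labelled knockout and 8.92 in wild type and 0 h levels of 9.81 in the labelled knockout and 9.85 in wild type. Pgam1, phosphoglycerate mutase, was 1.62-fold lower at 4 h (adjusted p = 0.00221). At 2 h the calls of Pgam1 (-0.44) and Pkm (-0.49) were lost under housekeeping centring (adjusted p of 0.257 and 0.151). They were also lost without the wild-type 0 h, labelled-knockout 0 h or labelled-knockout 2 h array, and that of Pgam1 without the wild-type 2 h array too, at adjusted p of 0.0587 to 0.11.

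Aldoa, the main aldolase, read 12.54, 12.43, 12.25 and 12.02 in labelled-knockout cells at 0, 1, 2 and 4 h, and 12.45, 12.25, 12.10 and 11.75 in wild-type cells. Both 4 h arrays were the lowest. Aldoa was 1.53-fold lower at 4 h (log2 difference -0.61, SE 0.11, adjusted p = 0.00448), and its 5 probe sets differed by -0.61 to -0.76. Aldoc, a second aldolase, lay at background at 4 h and was at least 1.51-fold lower (adjusted p = 0.0152). That call was lost without the wild-type array of 0 h (adjusted p = 0.117) or 4 h (adjusted p = 0.0851). Under housekeeping centring the calls of Aldoa (-0.28) and Aldoc (-0.39) at 4 h were lost.

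Gapdh, glyceraldehyde-3-phosphate dehydrogenase, was read from the 3' control probe set of the array. It read 12.80, 12.63, 12.51 and 12.39 in labelled-knockout cells at 0, 1, 2 and 4 h, and 12.63, 12.46, 12.40 and 12.29 in wild-type cells. Each later array was lower within its genotype, and the decrease at 4 h was 1.29-fold (log2 difference -0.37, SE 0.10, adjusted p = 0.0256). At 4 h the middle control probe set of Gapdh differed by -0.39 and the 5' one by only -0.16. The 5' one read 9.49 at 0 h and at 4 h in labelled-knockout cells, and 9.62 and 9.31 in wild-type cells. The call was lost under cyclic loess (adjusted p = 0.0773), under housekeeping centring (-0.04) and without any one array of 0 h or 4 h (adjusted p of 0.0806 to 0.129). Pgk1, phosphoglycerate kinase, and Eno2, the enolase first known from neurons, were not called at any LPS time, with differences of -0.15 and 0.06 at 4 h. Under housekeeping centring the sign of Pgk1 turned, to 0.18.

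**Figure D3:**
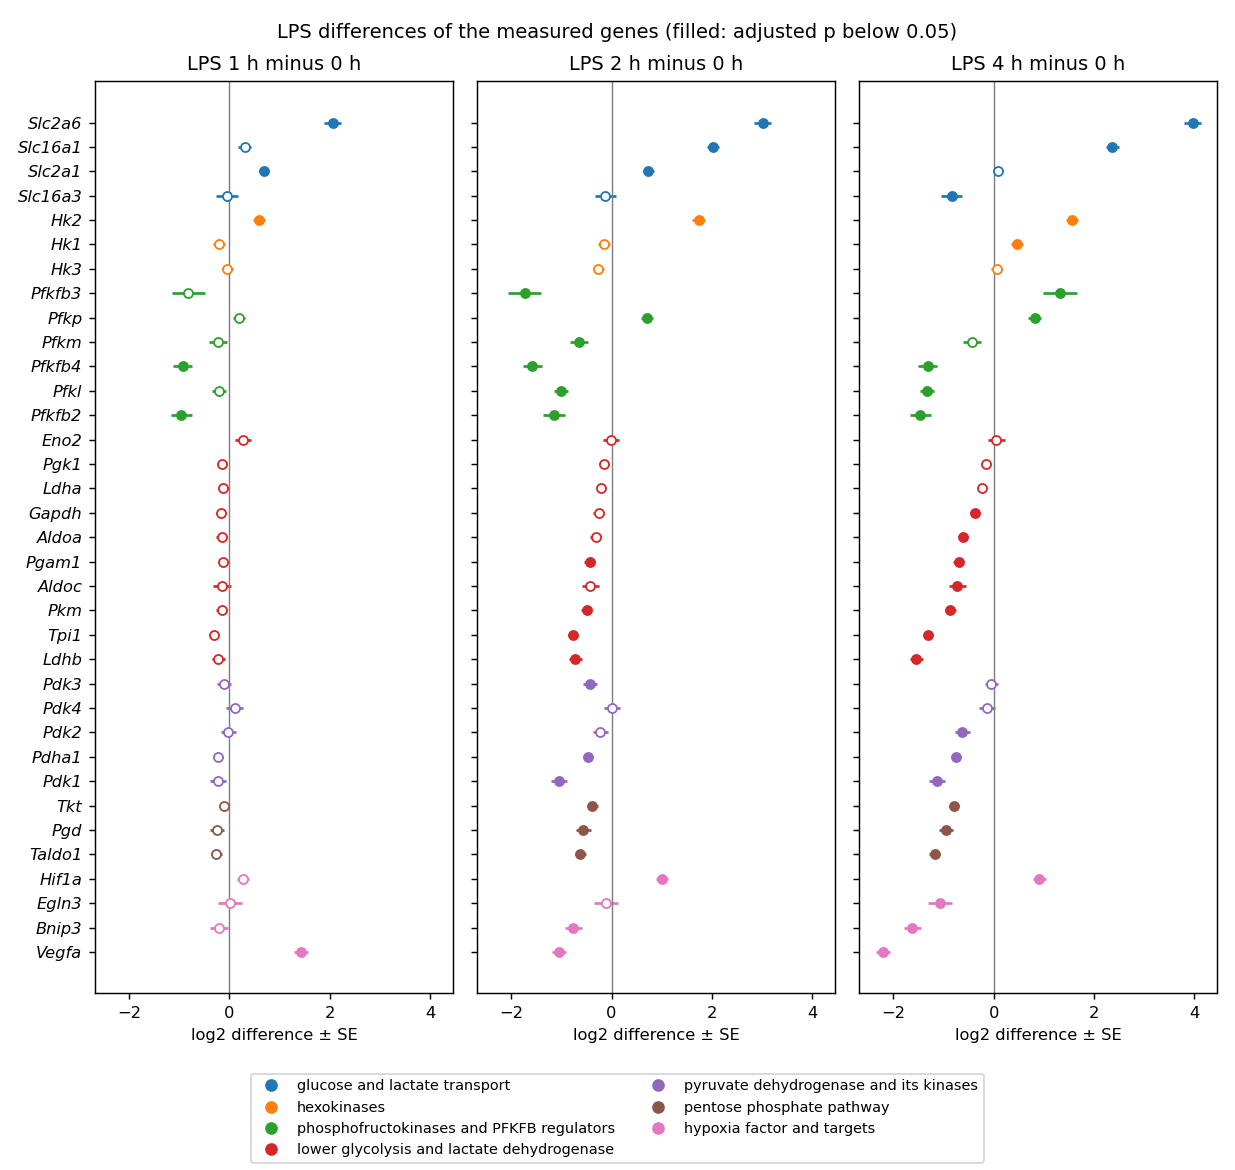
Log2 difference from 0 h at 1, 2 and 4 h of LPS (x axis) for the 35 measured members, ordered by role (y axis). Points are the fitted differences, filled where called, and bars their moderated standard errors. The transport and hexokinase genes Slc2a6, Slc16a1 and Hk2 lie to the right of 0, while most lower glycolysis, pyruvate dehydrogenase and pentose phosphate genes lie to the left at 4 h.

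Pyruvate dehydrogenase admits pyruvate to the citric acid cycle and is switched off by its kinases. Of the 5 genes, 3 were called lower at 2 h and 3 at 4 h, against 29.8% and 29.4% of all genes tested. Pdk1, a kinase known as a hypoxia target, read 7.0, 6.73, 5.71 and 5.66 in labelled-knockout cells at 0, 1, 2 and 4 h, and 6.99, 6.79, 6.20 and 6.07 in wild-type cells. The 4 arrays of 2 and 4 h lay below all earlier ones. Pdk1 was 2.06-fold lower at 2 h (log2 difference -1.04, SE 0.16, adjusted p = 0.00311) and 2.19-fold lower at 4 h (adjusted p = 0.00167). Its other 2 probe sets above background on all 8 arrays differed by -1.14 and -0.92 at 4 h.

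Pdha1, the catalytic subunit of the complex, was 1.39-fold lower at 2 h (adjusted p = 0.0129) and 1.68-fold lower at 4 h (log2 difference -0.75, SE 0.10, adjusted p = 0.0017). A second Pdha1 probe set, above background on all 8 arrays, differed by -0.69 at 2 h and only -0.23 at 4 h. In wild type that probe set read 4.15 at 0 h and 4.12 at 4 h. Pdk2 lay at background at 4 h and was at least 1.37-fold lower (adjusted p = 0.0171), and Pdk3 was lower at 2 h only (-0.44, adjusted p = 0.0447). The calls of Pdha1 and Pdk3 at 2 h and Pdk2 at 4 h were lost under housekeeping centring. That of Pdk3 was also lost under cyclic loess (-0.15, adjusted p = 0.438), with trend and robust moderation (adjusted p = 0.0892) and without the genotype block (adjusted p = 0.0958). The Pdha1 call at 2 h was also lost without any one array of 0 h or 2 h (adjusted p of 0.0535 to 0.0911), and that of Pdk3 without either 1 h or 2 h array or the wild-type 0 h array (adjusted p of 0.0643 to 0.277). That of Pdk2 was lost without either 4 h array or the wild-type 0 h array (adjusted p of 0.0512 to 0.121).

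Pdk4, the kinase induced by fasting, read 3.13, 3.50, 3.29 and 3.28 in labelled-knockout cells at 0, 1, 2 and 4 h, and 3.48, 3.31, 3.34 and 3.05 in wild-type cells. All arrays lay close to background, the genotypes overlapped, and Pdk4 was not called in any comparison.

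The 3 measured pentose phosphate genes were each called lower at 2 h and at 4 h, and 0 were called at 1 h. Of all genes tested, 29.8% were called lower at 2 h and 29.4% at 4 h. Pgd encodes 6-phosphogluconate dehydrogenase, which makes NADPH in the oxidative branch. It read 12.35, 12.13, 11.84 and 11.64 in labelled-knockout cells at 0, 1, 2 and 4 h, and 12.51, 12.24, 11.91 and 11.33 in wild-type cells. Every later array was lower within each genotype. Pgd was 1.93-fold lower at 4 h (log2 difference -0.95, SE 0.14, adjusted p = 0.00241), and its 4 probe sets differed by -0.92 to -1.05.

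Taldo1 and Tkt encode transaldolase and transketolase, which rearrange sugars in the non-oxidative branch. Taldo1 read 10.29, 10.06, 9.60 and 9.13 in labelled-knockout cells at 0, 1, 2 and 4 h, and 10.58, 10.30, 10.02 and 9.39 in wild-type cells. Every later array was lower within its genotype, and Taldo1 was 2.26-fold lower at 4 h (log2 difference -1.18, SE 0.11, adjusted p = 0.000291). Tkt was 1.73-fold lower at 4 h (log2 difference -0.79, SE 0.10, adjusted p = 0.00123), and both of its 4 h arrays were the lowest. All 3 calls held at 4 h under cyclic loess and housekeeping centring. At 2 h those of Pgd (-0.56) and Tkt (-0.38) were lost under housekeeping centring (adjusted p of 0.131 and 0.456). Both were also lost without any one array of 0 h or 2 h (adjusted p of 0.0586 to 0.15), and that of Tkt under cyclic loess (adjusted p = 0.0516).

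The hypoxia factor and its targets did not move together. Hif1a, which encodes HIF-1alpha, read 11.17, 11.35, 12.02 and 11.92 in labelled-knockout cells at 0, 1, 2 and 4 h, and 10.84, 11.19, 12.00 and 11.91 in wild-type cells. The 4 arrays of 2 and 4 h lay above all earlier ones. Hif1a was 2.01-fold higher at 2 h (log2 difference 1.01, SE 0.12, adjusted p = 0.00139) and 1.88-fold higher at 4 h (adjusted p = 0.00148). Its other 3 probe sets differed by 0.47 to 2.25 at 2 h, all upwards.

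Vegfa, the vascular growth factor gene and a classic HIF target, rose and then fell. It read 6.12, 7.33, 4.97 and 3.92 in labelled-knockout cells at 0, 1, 2 and 4 h, and 6.0, 7.65, 5.05 and 3.78 in wild-type cells. In both genotypes the 1 h array was the highest and the 4 h array the lowest, with no overlap between any 2 times. Vegfa was 2.70-fold higher at 1 h (log2 difference 1.43, SE 0.14, adjusted p = 0.00224), 2.07-fold lower at 2 h (adjusted p = 0.00218) and 4.63-fold lower at 4 h (log2 difference -2.21, SE 0.14, adjusted p = 8.14e-05). That was the largest fall of any measured member. A second Vegfa probe set near background differed by 0.33, -0.31 and -0.07.

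Bnip3, a mitochondrial protein of mitophagy, and Egln3, the HIF prolyl hydroxylase PHD3, are induced by hypoxia in many cells. Bnip3 read 8.44, 8.22, 7.80 and 7.11 in labelled-knockout cells at 0, 1, 2 and 4 h, and 7.93, 7.73, 7.05 and 6.01 in wild-type cells. Egln3 read 5.97, 5.87, 5.66 and 4.38 in the labelled knockout and 4.10, 4.21, 4.20 and 3.54 in wild type. The 4 h array was the lowest of its genotype for both genes, and the labelled-knockout array was the higher one at all 4 times. A second Egln3 probe set differed by -0.60 at 2 h and -0.63 at 4 h. In wild type that probe set was lowest at 2 h (3.40) and read 3.77 at 4 h. Bnip3 was 1.70-fold lower at 2 h (adjusted p = 0.014) and 3.07-fold lower at 4 h (log2 difference -1.62, SE 0.17, adjusted p = 0.000537), and Egln3 was 2.11-fold lower at 4 h (log2 difference -1.08, SE 0.24, adjusted p = 0.0118). The Bnip3 call at 2 h was lost without the wild-type array of 0 h (adjusted p = 0.106) or 2 h (adjusted p = 0.0704) or the labelled-knockout 2 h array (adjusted p = 0.068). The Egln3 call was lost without the labelled-knockout 0 h array (-0.80, adjusted p = 0.0894).

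Promoters of Bnip3 and Egln3 are shown because these genes were the members called higher in the labelled knockout. They lie at chr7:138909507-138909756, minus strand, and at chr12:54203875-54204124, minus strand (RefSeq, GRCm38.p6, 250 bases before the start, capitals as above).
Bnip3: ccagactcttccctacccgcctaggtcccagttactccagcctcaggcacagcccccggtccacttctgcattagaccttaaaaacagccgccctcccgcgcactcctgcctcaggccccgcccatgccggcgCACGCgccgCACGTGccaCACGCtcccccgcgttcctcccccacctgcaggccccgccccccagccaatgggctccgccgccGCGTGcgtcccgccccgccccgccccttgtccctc
Egln3: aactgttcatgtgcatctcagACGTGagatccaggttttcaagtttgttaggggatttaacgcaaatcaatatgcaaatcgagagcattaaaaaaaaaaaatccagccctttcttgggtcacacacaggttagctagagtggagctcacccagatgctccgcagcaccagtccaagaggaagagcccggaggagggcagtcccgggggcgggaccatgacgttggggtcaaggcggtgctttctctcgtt
Bnip3 held CACGTG with 3 matches to GCGTG around it, and Egln3 held 1 match to ACGTG. In the wider windows from 250 bases before to 50 after the start, all 35 members matched a RefSeq entry, with 51 windows in all. ACGTG on either strand lay in 26 of 51 (51.0%), against 19.6% of all 32851 windows in the table, and GCGTG in 28 of 51 (54.9%), against 32.4%. CACGTG, which overlaps ACGTG, lay in 8 of 51 (15.7%), against 7.15% of all windows. The NF-kappaB consensus lay in 2 of 51 (3.92%), against 4.51%. Either ACGTG or GCGTG lay in 41 of 51 (80.4%), against 43.8% of all windows. Base composition was not matched between the members and the rest.

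The genotype comparison asked which members differed between the labelled knockout and wild type over the 4 times. The arrays of a genotype may share a cell pool, so the 4 times are not known to be independent replicates. Genotype calls, and a lack of overlap between the genotypes, therefore do not measure variation between mice. Of 35 members, 2 were called higher (5.71%), against 4.75% of all genes tested, and 3 lower (8.57%), against 8.72% of all genes. Both shares lay near those of all genes, so the counts are no result about the members as a list. The median member differed by -0.0007 and the median gene by -0.04.

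The labelled knockout exceeded wild type 2.75-fold for Egln3 (log2 difference 1.46, SE 0.17, adjusted p = 0.00476). All 4 labelled-knockout arrays lay above all 4 wild-type arrays. The differences were 1.87, 1.66, 1.46 and 0.84 at 0, 1, 2 and 4 h, and a second probe set differed by 1.17 over the 4 times. For Bnip3 the excess was 1.64-fold (log2 difference 0.71, SE 0.12, adjusted p = 0.0164), with differences of 0.51, 0.49, 0.75 and 1.10 at the 4 times. Its call was lost without either 0 h array (0.78, adjusted p = 0.0516) or either 2 h array (0.70, adjusted p = 0.0667).

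Eno2 was 1.97-fold lower in the labelled knockout (log2 difference -0.98, SE 0.11, adjusted p = 0.00479). It read 6.61, 6.83, 6.31 and 6.52 in labelled-knockout cells at 0, 1, 2 and 4 h, and 7.34, 7.66, 7.63 and 7.54 in wild-type cells, with no overlap between genotypes. Ldhb was 1.76-fold lower (log2 difference -0.82, SE 0.09, adjusted p = 0.0043), and its other 3 probe sets differed by -0.90 to -0.93. Taldo1 was 1.23-fold lower (log2 difference -0.30, SE 0.08, adjusted p = 0.0496) and lower at all 4 times. The Taldo1 call was lost without any one of the 8 arrays (adjusted p of 0.09 to 0.17), under cyclic loess and under housekeeping centring.

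Slc2a6 read lower in the labelled knockout at all 4 times, with differences of -0.83, -0.16, -0.37 and -0.50, and missed the threshold (log2 difference -0.46, SE 0.12, adjusted p = 0.0535). Under housekeeping centring it was called lower (-0.47, adjusted p = 0.04). Hk2, Ldha and Vegfa differed by 0.03, 0.01 and -0.03 between genotypes, at adjusted p of 0.85, 0.913 and 0.854, which does not show that the genotypes were alike.

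Some markers of other cells moved with genotype. All 8 markers of resident peritoneal macrophages were called higher in the labelled knockout, with a median log2 difference of 1.75. Their summed linear level was 10903 to 12439 in the labelled knockout and 2491 to 3436 in wild type. Of 6 tested mesothelial and stromal markers 5 were lower, with sums of 440 to 690 in the labelled knockout and 1374 to 1849 in wild type, and Msln and Krt19 were at background. B cell sums were 457 to 732 in the labelled knockout and 80.7 to 88.1 in wild type, with Pax5 at background. Only 1 of 3 tested B cell markers was called higher, and their log2 differences ran from -0.33 to 3.68 with a median of 0.18. Neutrophil sums were 169 to 272 in the labelled knockout and 86.7 to 123 in wild type, with Elane and Ltf at background and 1 of 3 tested markers called higher. T cell sums were 79.3 to 118 in the labelled knockout and 59.4 to 68.6 in wild type, with Cd3g and Cd8a at background. Of 3 tested T cell markers 1 was called higher, with a median log2 difference of 0.20.

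Mast cell and eosinophil sums were 45.6 to 51.8 in the labelled knockout and 55.2 to 84.3 in wild type, and 1 of 3 tested markers was called lower. Macrophage sums overlapped, at 33178 to 38149 in the labelled knockout and 33308 to 37066 in wild type. Of 8 macrophage markers 2 were called higher and 1 lower. The part of these cell markers in the differences of Egln3, Bnip3, Eno2, Ldhb and Taldo1 was not tested. In such bulk samples fewer cells of a type and less RNA per cell cannot be told apart. As a sign of RNA quality, the 3' probe set of Actb exceeded the 5' one by 3.11, 2.61, 2.52 and 2.30 in labelled-knockout cells at 0, 1, 2 and 4 h, and 2.64, 2.35, 2.43 and 2.16 in wild-type cells. For Gapdh the excess was 3.31, 2.95, 3.04 and 2.90 in labelled-knockout cells, and 3.01, 2.99, 3.16 and 2.98 in wild-type cells. The labelled knockout was thus higher at all 4 times by Actb, and only at 0 h by Gapdh. The part of RNA quality in the LPS and genotype differences was not tested.

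**Figure D4:**
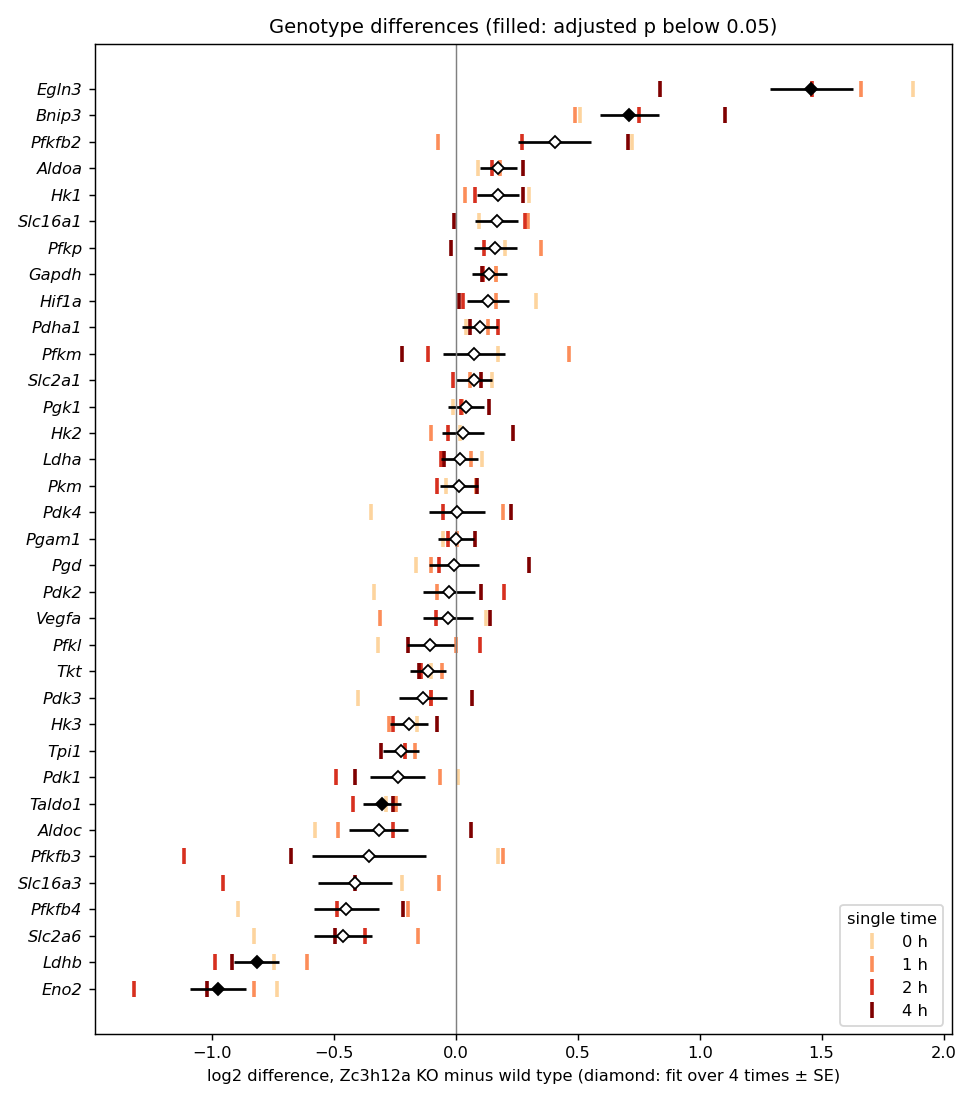
Log2 difference of labelled knockout minus wild type (x axis) at each of the 4 times (coloured ticks) and over all times (diamonds with moderated standard errors, filled where called) for the 35 measured members (y axis). Egln3 and Bnip3 lie to the right of 0 at all 4 times, and Eno2, Ldhb and Taldo1 to the left.

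Whether the genotype effect was altered by LPS was tested with an interaction term. With limma 0 members and 0% of all genes were called, and 1 member and 434 of 12541 genes had an unadjusted p under 0.05. That member was Pfkfb4, whose difference was -0.89 at 0 h and -0.20, -0.49 and -0.22 at 1, 2 and 4 h (change 0.59, SE 0.22, adjusted p = 1). Egln3 had a change of -0.55 (SE 0.36) and Pfkfb3 one of -0.70 (SE 0.51), neither past the threshold. The fit had 2 residual degrees of freedom.

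A list of 58 other genes of the same pathways had 46 tested. At 4 h 8 were called higher (17.4%, against 14.4% of all genes) and 20 lower (43.5%, against 29.4%), with a median of -0.27. Adm, a vasodilator peptide gene induced by hypoxia, was 44.3-fold higher at 4 h (log2 difference 5.47, SE 0.43, adjusted p = 0.000157). Ak4, a mitochondrial adenylate kinase and HIF target, was 12.8-fold higher, and Lox, the collagen cross-linking lysyl oxidase, 7.25-fold higher. Pdp1, the phosphatase that activates pyruvate dehydrogenase, was 9.67-fold lower (log2 difference -3.27, SE 0.16, adjusted p = 3.01e-05). Mxi1, a MYC antagonist, was 3.50-fold lower, and Epas1, which encodes HIF-2alpha, 3.32-fold lower.

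At 1 h 2 of these 46 genes were called higher (4.35%, against 3.84% of all genes) and 3 lower (6.52%, against 6.62%). At 2 h 7 were called higher (15.2%, against 12.0%) and 18 lower (39.1%, against 29.8%). By genotype 4 were called higher in the labelled knockout (8.7%, against 4.75% of all genes) and 5 lower (10.9%, against 8.72%). Epas1 was 0.77 higher (SE 0.08, adjusted p = 0.0031), Lox 0.86 higher and Mxi1 0.49 higher on the log2 scale. The log2 difference was -0.92 for Slc16a7, a pyruvate and lactate transporter, -0.84 for Pgls, a pentose phosphate enzyme, and -0.55 for Car9, a carbonic anhydrase and HIF target.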

How the data were processed

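Total RNA from thioglycollate-elicited peritoneal macrophages of mice labelled Zc3h12a-/- and wild-type, each at 0, 1, 2 and 4 h of LPS, was labelled and hybridised to 8 Affymetrix arrays, per the labels' protocols. The authors deposited log2 intensities for 45101 probe sets, made with RMA per the submitters' processing notes (version not given in the sources used here). RMA equalises the arrays' distributions, so any shift in the mRNA content of the cells is removed.

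Of the probe sets, 34958 had 1 symbol in the platform annotation, 932 had several and 9211 were unnamed here. A gene was its single-symbol probe set of highest mean, with control probe sets used only where a gene had no other (Gapdh). It was tested when its second-highest array reached 3.16, the median of all values, which kept 12541 of 18194 genes. Differences came from limma 3.58.1 in R 4.3.3 (lmFit, eBayes), with genotype and time in 1 additive fit (3 residual degrees of freedom), and from a fit with a genotype by LPS term (2 residual degrees of freedom). Benjamini-Hochberg adjusted p-values under 0.05 were called. The highest of 27 bacterial control probe sets gave each array's background, a rule chosen after the data were seen. A gene at or below it on both arrays of a time has only a bound, given as "at least", with dim arrays set to at least their background. The fits were also run on simulated data in which few genes changed, unlike here, and no result rests on that run. Precision is limited by the number of arrays.

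The members and all lists were chosen with earlier results of these data known. Values on every array are given for members past the threshold with the 4 largest increases or 3 largest decreases at each LPS time, for the 4 largest each way by genotype, for the 2 of smallest p each way in the change of the genotype difference, and always for Slc2a1, Hk2, Pfkfb3, Ldha, Hif1a, Vegfa, Pdk1 and Pdk4. Other pathway genes named were the 3 of smallest p each way at 4 h and by genotype. Other members with values on every array were chosen after their values were seen. Alternatives were cyclic loess, centring on housekeeping genes, dropping the filter, raising it to the 75th percentile, averaging a gene's probe sets, dropping less specific probe sets (suffix _s, _x or _a), trend and robust moderation, no block, and leaving out each array. Sequences came from RefSeq (GRCm38.p6).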

Additional observations from a re-analysis of the deposited data

Results flagged for a closer look

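Pdk4, the pyruvate dehydrogenase kinase induced by fasting, moved in opposite directions from 0 h in the 2 genotypes. It differed at 1, 2 and 4 h by 0.38, 0.16 and 0.15 in the labelled knockout and by -0.17, -0.13 and -0.42 in wild type. All 8 arrays lay near background, between 3.05 and 3.50 on the log2 scale, and each difference rests on 2 arrays. The test of a changed genotype difference gave 0.47 (SE 0.21, limma adjusted p = 1), so the difference between genotypes did not pass the threshold.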

How the results depend on the processing

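For the members picked by the rule given with the processing, 674 values were recomputed under the alternatives. Each was taken in the comparisons that named it, and the members always given in every LPS comparison. Members whose arrays were printed for other reasons, such as Slc16a3, Hk1 and Gapdh, are outside this tally. Of these, 608 kept their direction and their side of the threshold, 53 lost a call, 4 gained one and 9 changed sign. The 9 concerned Ldha and Pdk4, neither of which was called as reported. Other members also lost calls or changed sign. Lost calls under cyclic loess, housekeeping centring and left-out arrays are given beside the values, but most of those without the block are not. Without the genotype block the calls of Hk2, Pfkfb2 and Pfkfb4 at 1 h were lost. So were those of Ldhb, Tkt, Taldo1 and Bnip3 at 2 h, and of Hk1, Aldoc, Gapdh, Slc16a3 and Egln3 at 4 h (limma adjusted p of 0.0619 to 0.394). The Aldoc call was also lost without the less specific probe sets (-0.53, adjusted p = 0.172). Ldha differed by 0.064 at 2 h and 0.10 at 4 h under housekeeping centring. Pdk4 ranged without single arrays from -0.13 to 0.34 at 1 h, -0.22 to 0.25 at 2 h and -0.37 to 0.10 at 4 h, and was 0.20 at 4 h under housekeeping centring. Members called higher at 1 h (4) numbered 2 to 4 without single arrays. Those lower at 1 h (2) numbered 1 under cyclic loess, housekeeping centring and the mean of probe sets, 0 with the filter at the 75th percentile and without the block, 4 with trend and robust settings, and 0 to 1 without single arrays. Those lower at 2 h (17) numbered 10 under housekeeping centring and 7 to 17 without single arrays. Dropping the less specific probe sets left 25 members tested, with 11 lower at 2 h, 12 lower at 4 h and 0 lower by genotype. By genotype, trend and robust settings gave 4 higher and 6 lower, the fit without the time block 0 higher and 1 lower (Eno2), and leaving out single arrays 1 to 2 higher. The genotype calls of Egln3, Bnip3, Ldhb and Taldo1 were thus lost without the time block (limma adjusted p of 0.164 to 0.935). The cause of these moves was not tested, except that a left-out array or probe set removes data by construction. Over all genes, calls ranged over the alternatives from 454 to 1769 at 1 h (1312 as reported), 3141 to 5730 at 2 h (5239), 3884 to 6229 at 4 h (5499), 150 to 2350 by genotype (1690) and 0 to 15 for the change of the genotype difference (0). That last fit could not be made without a 0 h array. At 1 h the split over all genes was 545 higher and 541 lower under cyclic loess and 564 and 474 under housekeeping centring, against 482 and 830 as deposited. At 2 h it was 1878 higher and 2865 lower and 3207 and 2185, against 1499 and 3740. At 4 h cyclic loess gave 2197 higher and 3053 lower. The fit already compares the genotypes within each time and the times within each genotype, and the labels carry no replicate numbers from which a further block could be made. Dim members (Pfkm, Pfkfb2, Pfkfb4, Aldoc, Pdk2, Pdk4) lay within reach of background, which limits their fold changes.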
